A study of Mus musculus with 24 samples.

Results

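The astrocyte identity and reactivity genes described here are 10 genes, taken as the rows with their symbols out of the 49568 gene symbols counted in hippocampal RNA of aged mice. They are Gfap and Vim (intermediate filaments), Serpina3n and Lcn2 (secreted proteins of reactive astrocytes), Cd44 (a receptor for hyaluronan), Aqp4 (the water channel of astrocyte endfeet), Slc1a2 and Slc1a3 (the glutamate transporters GLT-1 and GLAST), S100b (a calcium-binding protein) and Aldh1l1 (an enzyme of folate metabolism). All 10 were found in every library and all 10 had enough counts to be tested. The mice were wild type (WT) or MSK1 KD, and housed in standard cages (SH) or in an enriched environment (EE), giving the groups WTSH, WTEE, KDSH and KDEE with 6 libraries each. MSK1 KD mice carry a knock-in point mutation in the endogenous gene for the kinase MSK1 (Rps6ka5) that abolishes its kinase activity in every cell type, and were bred as a line separate from the WT mice on a C57-Bl/6J background. All mice were male. Enriched animals moved at 18 months to large cages with a running wheel, toys and tubes, and with more mice per cage than in standard housing. Hippocampi were taken from both housing conditions at 21 to 23 months. Each library came from the hippocampus of 1 mouse. The study set aside samples 4 and 7 of WTSH and sample 6 of KDSH for ribosomal RNA content and low correlation with their group, which left 4 WTSH, 6 WTEE, 5 KDSH and 6 KDEE libraries, and the set-aside samples are given apart below.

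Astrocytes clear glutamate and potassium from the synaptic cleft, move water at the vessel wall, and supply neurons with metabolites. In response to injury, inflammation or age they take on a reactive state, known for more GFAP and vimentin filament and for secreted factors such as the protease inhibitor encoded by Serpina3n and the iron-binding lipocalin encoded by Lcn2. GFAP is more abundant in hippocampal astrocytes than in most astrocytes of the cortex, and reactive change can occur with or without loss of transporters and channels. Several of the 10 transcripts are also made by other cells: Vim in vessels, ependyma and meninges, S100b in some oligodendrocytes, Cd44 in neurons and immune cells, and Lcn2 in neutrophils and endothelium.

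Levels are CPM (counts relative to library size, scaled by TMM), and differences are log2 fold changes with their SE from edgeR's quasi-likelihood test over 20187 genes. A gene counted as called when its adjusted p was under 0.05 and its log2 fold change exceeded 0.38 in size. The p-values measure differences against the spread between these mice. Housing was given by cage, and the sample labels do not name the cage. Mice that shared a cage may not be independent, and this could not be checked. The 21 kept libraries held 27410239 to 71907130 counts on genes. In a kept library the 10 genes had between 8 counts (Lcn2 in KDSH 24) and 167584 counts (Slc1a2), and Lcn2 (8 to 452 counts) and Cd44 (245 to 591 counts) rested on the fewest. Library WTEE 10 stood apart from the other kept libraries: the summed level of 6 neuronal markers was 6981 CPM there, the lowest of the 21, its Rps6ka5 level was 13.85 CPM against a KDEE mean of 23.7 CPM, and 6.57% of its read pairs were ambiguous between genes, the highest share of the 21. Choroid plexus transcripts also varied between dissections, with a sum over 7 markers of 25.5 to 9758 CPM. Most of it was in 5 libraries, as WTEE 10 and 13 had 5335 and 5978 CPM, WTSH 19 had 4429 CPM, and KDEE 12 and 14 had 9758 and 2691 CPM. The KDSH libraries reached at most 104.4 CPM.

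Astrocyte markers outside the 10 genes were abundant in all kept libraries. All 10 that were listed (Gja1, Gjb6, Aldoc, Glul, Sox9, Fgfr3, Ntsr2, Mlc1, Hepacam, Acsbg1) were measured, and their summed level lay between 3018 and 4056 CPM in every kept library. Per kilobase of exon, the mean level over the 21 libraries was highest for Slc1a2 at 198 CPM per kb, followed by Gfap at 173, S100b at 91.8, Slc1a3 at 76.4, Serpina3n at 41.3, Aqp4 at 22.3, Vim at 16.2, Aldh1l1 at 12.8, Cd44 at 1.18 and Lcn2 at 0.865 CPM per kb. On this scale Slc1a2 was above 99.3% and Gfap above 99.2% of 19459 genes with a length, whereas Lcn2 was above 31.8% and Cd44 above 36%. The other 6 genes lay between 80.8% (Aldh1l1) and 98.1% (S100b). The spread between mice differed as widely: the biological coefficient of variation was 9.63% for Slc1a3, 10% for Aqp4, 11.2% for Aldh1l1, 11.6% for Slc1a2, 13% for Gfap, 14.2% for S100b, 15.6% for Cd44, 17.6% for Vim and 18.9% for Serpina3n, beside a median of 14% over all tested genes. Lcn2 was far more variable, at 75.4%, above 98.9% of tested genes.

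**Figure D1:**
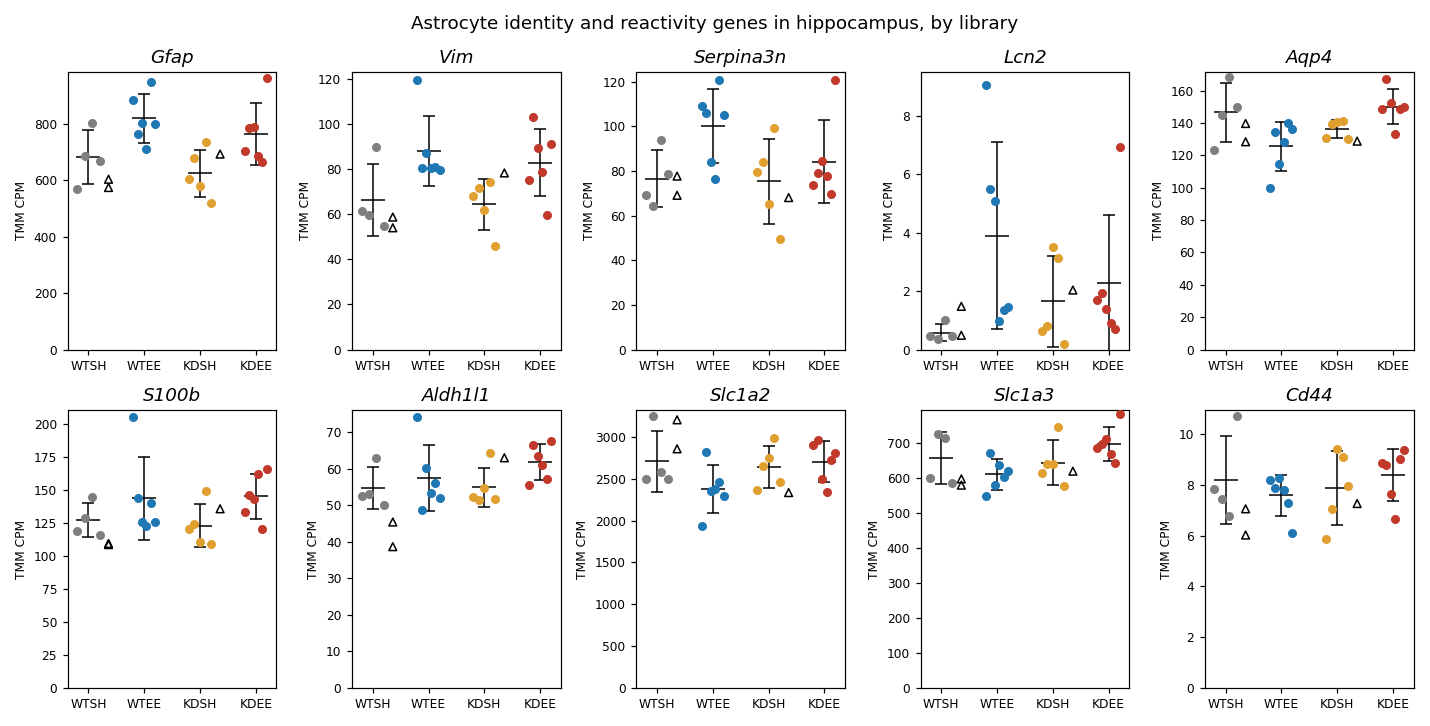
TMM-normalized level (CPM, axes from 0) of the 10 genes in each library by group; filled points are the 21 kept libraries, black bars the group mean ± SD (the lower end for Lcn2 in KDEE runs below the axis), and open triangles the set-aside libraries on a scale computed with all 24. Gfap and Vim had their highest group means in WTEE and KDEE, Aqp4 and Slc1a3 their lowest in WTEE, and every pair of groups next to each other in mean level overlapped.

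The filament genes had higher mean levels in enriched than in standard-housed mice of both genotypes, by about the same amount, but neither passed the threshold. Gfap, on chromosome 11 (102887336 to 102900912, minus strand, GRCm38), encodes the filament protein by which astrocytes are usually recognised. In the WTSH libraries Gfap was at 568, 687, 803 and 666 CPM. In WTEE it ran from 711 to 949 CPM with a median of 802 CPM. In KDSH it was at 604, 679.8, 581, 735 and 519.9 CPM, and in KDEE it ran from 664 to 961.5 CPM with a median of 745 CPM. In WT mice 3 of 6 enriched libraries lay above every standard-housed one, and in MSK1 KD mice likewise 3 of 6, with the rest inside the standard range. The group means were 681 ± 96.3 (SD, n = 4) in WTSH, 819 ± 85.3 (n = 6) in WTEE, 624 ± 84.5 (n = 5) in KDSH and 765 ± 109 CPM (n = 6) in KDEE. For Gfap, WTEE minus WTSH was 0.27 ± 0.12 (SE) and KDEE minus KDSH 0.29 ± 0.11 on the log2 scale, with adjusted p = 0.651 and 0.378 (edgeR). Averaged over the genotypes the housing difference was 0.28 ± 0.079, the lowest adjusted p of the 10 genes at 0.186 (edgeR; unadjusted p = 0.0020), and its unadjusted p was under 0.05 in all 29 alternative fits. In a bulk sample, more astrocytes and more RNA per astrocyte cannot be told apart.

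Vim, on chromosome 2 (13573927 to 13582826, plus strand), encodes vimentin, the filament partner of GFAP in reactive astrocytes and the main filament of endothelial, ependymal and meningeal cells. Its levels in WTSH were 61.4, 59.5, 90.1 and 54.9 CPM, and in WTEE 79.7 to 119.6 CPM with a median of 80.9 CPM. KDSH libraries had 68.3, 71.9, 62.0, 74.4 and 46.1 CPM, and KDEE libraries 59.9 to 103.3 CPM with a median of 84.2 CPM. In MSK1 KD mice 5 of 6 enriched libraries exceeded every standard-housed one. In WT mice 3 of 4 standard-housed libraries lay below every enriched one, and WTSH 19 lay above all but WTEE 10. Vim differed by 0.41 ± 0.16 between WTEE and WTSH and by 0.36 ± 0.15 between KDEE and KDSH (log2; edgeR, adjusted p = 0.651 and 0.3975), with a housing average of 0.39 ± 0.11 (edgeR, adjusted p = 0.188). The libraries with the highest Vim in WTSH (19), WTEE (10) and KDEE (12) were the ones with the most or, for WTEE 10, the second most choroid plexus transcript of their group. A further fit took the log2 of the summed level of the 7 choroid plexus markers as a covariate. In that fit the difference in Vim was 0.37 ± 0.12 between WTEE and WTSH but 0.16 ± 0.13 between KDEE and KDSH. The summed level had a median of 41.05 CPM in KDSH and 114.1 CPM in KDEE, so covariate and housing are partly confounded in MSK1 KD mice. For Gfap the same covariate left 0.26 ± 0.11 in WT and 0.24 ± 0.11 in MSK1 KD mice.

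Serpina3n, on chromosome 12 (104406729 to 104414329, plus strand), encodes a secreted inhibitor of serine proteases and is among the most strongly induced transcripts of reactive astrocytes, though oligodendrocytes make it too. It stood at 69.4, 64.5, 93.8 and 78.6 CPM in WTSH, and at 76.5 to 120.7 CPM with a median of 105.4 CPM in WTEE. In KDSH it stood at 79.35, 84.1, 64.99, 99.1 and 49.3 CPM, and in KDEE at 69.7 to 120.8 CPM with a median of 78.25 CPM. In WT mice 4 of 6 enriched libraries were above every standard-housed one, while in MSK1 KD mice only KDEE 22 was. The difference in Serpina3n was 0.39 ± 0.18 in WT (edgeR, adjusted p = 0.651) and 0.16 ± 0.16 in MSK1 KD mice (edgeR, adjusted p = 0.6765), and the difference between those effects was 0.23 with a 95% interval of -0.24 to 0.70. Without KDEE 22 the MSK1 KD value was 0.028 ± 0.15. Serpina3n has several near copies in a cluster, and only uniquely assigned reads were counted. By such reads 7 of 10 listed Serpina3 relatives had too few counts to be tested, and all 10 together summed to 1.22 to 3.37 CPM in the kept libraries. Reads shared between near copies were left out, so these counts cannot show the full level of the copies. Serpina3g, the most abundant of the tested relatives, had 1.65 ± 0.26 CPM in WTSH and 1.66 ± 0.30 CPM in WTEE.

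The start regions of Gfap, Vim and Serpina3n are printed because these genes varied together between mice, as given with the pairs of genes. Each run shows 250 bases before and 10 bases after the RefSeq start site on the gene's own strand in GRCm38.p6, 5′ to 3′, and capitals mark matches on either strand to any of the motifs TTCNNNGAA (STAT), TGACGTCA (CRE), TGANTCA (AP1) and TATAAA (the core of the TATA box) or to the NF1 palindrome. The Gfap window is chr11:102897191-102897450, minus strand, the Vim window chr2:13574061-13574320, plus strand, and the Serpina3n window chr12:104406458-104406717, plus strand.
Gfap: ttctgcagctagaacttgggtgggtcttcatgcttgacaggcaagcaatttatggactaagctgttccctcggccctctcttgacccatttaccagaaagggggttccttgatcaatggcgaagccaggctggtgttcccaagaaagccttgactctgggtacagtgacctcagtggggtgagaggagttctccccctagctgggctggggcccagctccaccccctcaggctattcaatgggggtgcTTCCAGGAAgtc
Vim: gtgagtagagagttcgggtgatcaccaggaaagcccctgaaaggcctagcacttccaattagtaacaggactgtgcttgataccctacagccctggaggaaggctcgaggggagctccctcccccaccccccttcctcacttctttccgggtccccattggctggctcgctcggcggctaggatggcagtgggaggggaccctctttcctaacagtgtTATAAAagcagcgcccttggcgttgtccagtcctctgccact
Serpina3n: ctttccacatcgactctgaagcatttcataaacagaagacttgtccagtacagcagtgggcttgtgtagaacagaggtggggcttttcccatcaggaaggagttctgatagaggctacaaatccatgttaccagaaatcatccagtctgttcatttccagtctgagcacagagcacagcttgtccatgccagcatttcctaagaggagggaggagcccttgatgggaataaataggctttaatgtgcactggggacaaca
The Gfap window held a STAT match that spans the start site, a pattern found in 8.30% of 32851 RefSeq promoter windows of 300 bases, which run 50 bases past the start. The Vim window held a TATAAA 32 bases before the start, a pattern found in 13.6% of windows. The printed Serpina3n run held none of these letter patterns. CREB, a substrate of MSK1, binds the CRE motif, which occurred in 1.79% of windows and in none of the windows of the 9 genes with one. The AP1 motif was found in 7.81% and the NF1 motif in 0.0365% of windows, and neither was found in a window of these 9 genes. RefSeq windows matched 9 of the 10 genes, all but Aqp4, with a single start site for each. For Gfap, Vim, Lcn2, Slc1a2 and Aldh1l1 this start site lies inside the annotated gene. The Slc1a2 window begins at 102706188 in a gene that begins at 102658659, and the Aldh1l1 window at 90550543 in a gene that begins at 90486427. Start sites elsewhere in the genes were not searched. Of the other 6 genes with a window Slc1a3 alone held a match, to the STAT and the TATA motif. A match is a match of letters, and no binding was measured here.

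Lcn2, on chromosome 2 (32384633 to 32388252, minus strand), encodes lipocalin-2, a secreted protein that binds iron-carrying siderophores and a widely used marker of reactive astrocytes. Its mean was highest in WTEE and lowest in WTSH, a larger ratio than for any of the other 9 genes, on few counts and with a wide spread. The 4 WTSH libraries had 0.464, 0.372, 1.02 and 0.459 CPM. The WTEE libraries ran from 0.979 to 9.06 CPM with a median of 3.26 CPM, 5 of 6 above every kept WTSH library. They fell into high values in WTEE 10, 11 and 13 (9.06, 5.50 and 5.08 CPM) and low values in the other 3 libraries (0.979 to 1.44 CPM). KDSH was at 0.622, 0.799, 3.52, 3.15 and 0.1955 CPM, and KDEE ran from 0.704 to 6.96 CPM with a median of 1.55 CPM, with KDEE 22 far above the other 5. The means were 0.578 ± 0.295 CPM (SD, n = 4) in WTSH, 3.91 ± 3.21 (n = 6) in WTEE, 1.66 ± 1.55 (n = 5) in KDSH and 2.265 ± 2.35 CPM (n = 6) in KDEE.

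For Lcn2, WTEE minus WTSH was 2.74 ± 0.82 on the log2 scale (95% interval 1.14 to 4.35), with unadjusted p = 0.0031 and adjusted p = 0.651 (edgeR). KDEE minus KDSH was 0.39 ± 0.69, and -0.34 ± 0.65 without KDEE 22. Under standard housing KDSH minus WTSH was 1.52 ± 0.83 (edgeR, unadjusted p = 0.081, adjusted p = 1), and 1.06 ± 0.85 without KDSH 8. The enrichment effect in WT exceeded that in MSK1 KD mice by 2.35 ± 1.05 (edgeR, unadjusted p = 0.036, adjusted p = 0.9999), a value of 1.92 ± 1.01 without WTEE 10 and 1.89 ± 1.06 without KDSH 8. With the choroid plexus covariate WTEE minus WTSH was 2.57 ± 0.80, KDEE minus KDSH 0.015 ± 0.72 and KDSH minus WTSH 1.85 ± 0.86. Lcn2 is also a granule protein of neutrophils, and the sum of 3 neutrophil markers (S100a8, S100a9, Ngp) ran from 0.339 to 0.500 CPM in WTSH, 0.1145 to 3.93 CPM in WTEE, 0.293 to 1.05 CPM in KDSH and 0.394 to 2.03 CPM in KDEE. The WTEE libraries with the most Lcn2 (10, 11 and 13) had the highest neutrophil sums of WTEE, at 1.26, 3.93 and 2.81 CPM, and the KDSH libraries with the most Lcn2 (8 and 18) the highest of KDSH, at 0.956 and 1.05 CPM. KDEE 22, with the most Lcn2 of its group, had the lowest neutrophil sum of its group. The part of blood cells in the Lcn2 level was not tested. The summed red blood cell markers (Hbb-bs, Hba-a1, Alas2) ran from 44.3 to 59.1 CPM in WTSH and 43.6 to 306.7 CPM in WTEE. Of 7 genes listed for receptors and ligands, Slc22a17, which encodes a lipocalin-2 receptor, had 844 ± 59.0 CPM in WTSH and 889 ± 124 CPM in WTEE, and Lrp2, the megalin receptor, 2.46 ± 0.51 and 2.30 ± 0.65 CPM.

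Cd44, on chromosome 2 (102811141 to 102901665, minus strand), showed the smallest share of its variance between groups, 7.47%. It was at 7.84, 7.44, 6.795 and 10.7 CPM in WTSH, 6.09 to 8.30 CPM in WTEE (median 7.85 CPM), 5.86, 7.07, 9.41, 9.11 and 7.97 CPM in KDSH, and 6.66 to 9.39 CPM in KDEE (median 8.83 CPM). The groups overlapped in every comparison, with 4 of 6 KDEE libraries above every WTEE library and WTSH 23 the highest of the 21. Its log2 fold change was -0.11 ± 0.14 between WTEE and WTSH (95% interval -0.38 to 0.17) and 0.088 ± 0.13 between KDEE and KDSH (95% interval -0.17 to 0.35). Spp1, which encodes the CD44 ligand osteopontin and is mainly a transcript of macrophages and microglia, had 6.04 ± 1.7 CPM in WTSH and 10.5 ± 8.2 CPM in WTEE, with 26.9 CPM in WTEE 10. Its difference was 0.79 ± 0.37 in WT (edgeR, adjusted p = 0.651).

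The water channel and the glutamate transporters had the opposite order in the WT groups: lower mean levels in WTEE than in WTSH, and higher levels in KDEE than in WTEE. Aqp4, on chromosome 18, was at 123.5, 145, 168 and 149.985 CPM in WTSH, and at 99.9 to 139.6 CPM with a median of 131 CPM in WTEE. In KDSH it was at 131, 139, 141, 141 and 129.9 CPM, and in KDEE at 133 to 167 CPM with a median of 149 CPM. In WTSH 3 of 4 libraries exceeded every WTEE library, and in KDEE 5 of 6 exceeded every WTEE and every KDSH library. The means were 147 ± 18.3 (SD, n = 4), 125.5 ± 15.3 (n = 6), 136 ± 5.55 (n = 5) and 149.9 ± 10.8 CPM (n = 6) in WTSH, WTEE, KDSH and KDEE. Aqp4 differed by -0.22 ± 0.087 between WTEE and WTSH, by 0.14 ± 0.082 between KDEE and KDSH and by -0.26 ± 0.078 between WTEE and KDEE (log2). The enrichment effect in WT minus that in MSK1 KD mice was -0.36 ± 0.12 (edgeR, unadjusted p = 0.0066, adjusted p = 0.730). WTEE minus KDEE had unadjusted p = 0.0037 and adjusted p = 0.3435 (edgeR), and its unadjusted p was under 0.05 in all 30 alternative fits. For WTEE minus WTSH the Aqp4 p was under 0.05 in 28 of 30 alternative fits, with the highest, unadjusted p = 0.120 by edgeR, without WTSH 19. The lowest Aqp4 value belonged to WTEE 10. Without that library Aqp4 was -0.17 ± 0.075 between WTEE and WTSH, -0.20 ± 0.068 between WTEE and KDEE, and -0.31 ± 0.10 in the interaction.

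Slc1a2, on chromosome 2 (102658659 to 102790784, plus strand), encodes GLT-1, which takes up most of the glutamate released in the forebrain. It stood at 2502, 3257, 2582 and 2495 CPM in WTSH, 1934 to 2818 CPM in WTEE (median 2368 CPM), 2363, 2651, 2752, 2993 and 2462 CPM in KDSH, and 2340 to 2966 CPM in KDEE (median 2764 CPM). In WTEE 5 of 6 libraries were below every WTSH library, with WTEE 11 the exception. Slc1a2 differed by -0.19 ± 0.10 between WTEE and WTSH (95% interval -0.39 to 0.0085), by 0.034 ± 0.095 between KDEE and KDSH and by -0.19 ± 0.091 between WTEE and KDEE (edgeR, adjusted p = 0.651, 0.889 and 0.957). Without WTSH 5, the library with the most Slc1a2, WTEE minus WTSH was -0.087 ± 0.10. Slc1a3, on chromosome 15 (8634124 to 8710764, minus strand), encodes GLAST, the transporter of radial glia and the astrocytes that descend from them. It stood at 599.8, 727, 714 and 587 CPM in WTSH, 547.5 to 673 CPM in WTEE (median 612 CPM), 615, 641, 641, 747 and 577 CPM in KDSH, and 642 to 783 CPM in KDEE (median 692 CPM). In WTEE 5 of 6 libraries were below every KDEE library. Slc1a3 differed by -0.11 ± 0.081 between WTEE and WTSH, 0.12 ± 0.077 between KDEE and KDSH, and -0.19 ± 0.073 between WTEE and KDEE (log2). The last had unadjusted p = 0.015 and adjusted p = 0.658 (edgeR). WTEE 10 was the lowest library of the 21 for both transporters.

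For the identity genes S100b and Aldh1l1 the highest group mean was in KDEE, as it was for Aqp4, Slc1a3 and Cd44. The S100b mean in KDEE, 145.5 CPM, was close to the 144 CPM of WTEE. S100b, on chromosome 10 (76253853 to 76261159, plus strand), was at 119, 129, 145 and 116 CPM in WTSH, 122.5 to 206 CPM in WTEE (median 132.9 CPM), 120.5, 124, 111, 149.7 and 109 CPM in KDSH, and 121 to 166 CPM in KDEE (median 145 CPM). Outside WTEE 10, which had 206 CPM, the WTEE libraries lay between 122.5 and 144 CPM, inside the WTSH range. S100b differed by 0.18 ± 0.13 between WTEE and WTSH, by 0.048 ± 0.098 without WTEE 10, and by 0.24 ± 0.12 between KDEE and KDSH (edgeR, adjusted p = 0.655, 1 and 0.443). Aldh1l1, on chromosome 6 (90486427 to 90600203, plus strand), was at 52.5, 53.2, 63.1 and 50.2 CPM in WTSH, 48.65 to 74.3 CPM in WTEE (median 54.8 CPM), 52.3, 51.4, 54.9, 64.25 and 51.7 CPM in KDSH, and 55.6 to 67.7 CPM in KDEE (median 62.3 CPM). In MSK1 KD mice 4 of 5 standard-housed libraries lay below every enriched one, and KDSH 18 lay among them. Aldh1l1 differed by 0.071 ± 0.099 between WTEE and WTSH and by 0.17 ± 0.093 between KDEE and KDSH (edgeR, adjusted p = 0.787 and 0.459). The MSK1 KD value was 0.057 ± 0.080 with the choroid plexus covariate. Counting ignored strand, and 604 of the 4516 exon bases of Aldh1l1 are shared with the gene models Gm45901 and Gm15756, the latter antisense, and so are 189 of the 13133 exon bases of Slc1a2 with antisense Gm13872. Reads that matched more than 1 gene in the counting were set aside as ambiguous. Strand would separate the antisense models, but not Gm45901, which lies on the same strand as Aldh1l1.

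**Figure D2:**
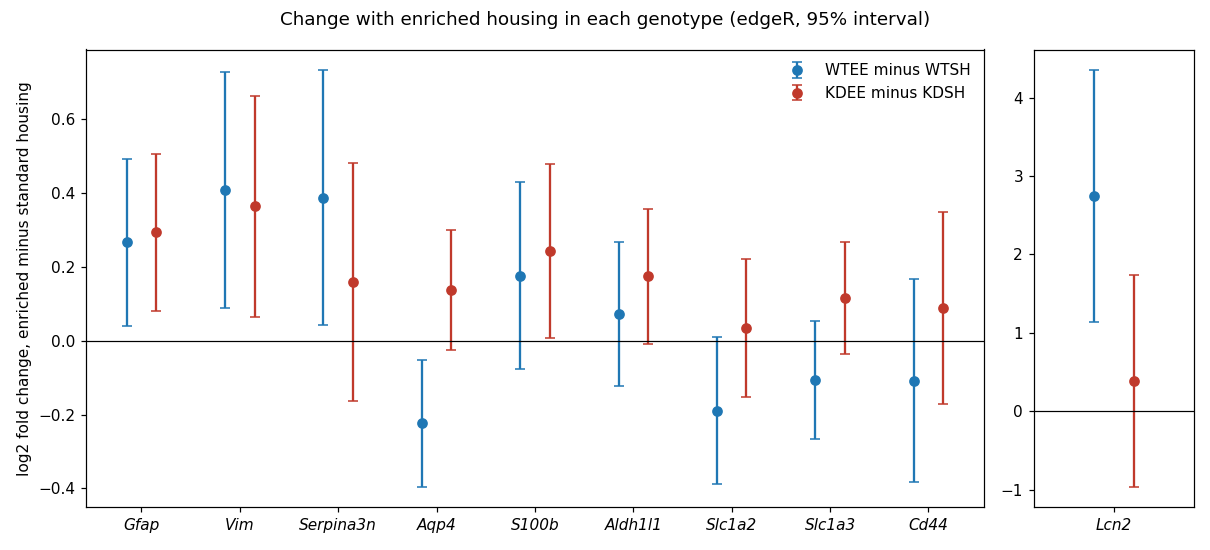
Log2 fold change by edgeR of enriched minus standard housing in WT (blue) and MSK1 KD mice (red) for the 10 genes. Lcn2 has an axis of its own. The 95% intervals are a normal approximation from the SE and are narrower than edgeR's test implies. For S100b in MSK1 KD mice the interval lies above 0, though the unadjusted p was 0.058 (edgeR). Gfap and Vim lay above 0 by similar amounts in both genotypes (Gfap 0.27 and 0.29), and Aqp4 lay below 0 in WT (-0.22) and above 0 in MSK1 KD mice (0.14).

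Across the 10 genes, no comparison called any of them, and none separated 2 groups without overlap. Between WTEE and WTSH, 5 genes had an unadjusted p under 0.05, with Gfap, Vim, Serpina3n and Lcn2 higher and Aqp4 lower in WTEE, where 6.55% of all 20187 tested genes did and 0.986% had groups that did not overlap. The count was 2 without WTEE 10, and also 2 without WTSH 2, 5 or 23. Without WTEE 10, Gfap, Vim and Serpina3n had an unadjusted p of 0.0536, 0.0575 and 0.0612 (edgeR). The median log2 fold change of the 10 genes was 0.12 beside 0.0065 over all genes, and 6 of 10 were positive. Between KDEE and KDSH, Gfap and Vim had an unadjusted p under 0.05, both higher in KDEE (1 gene did without KDSH 24 or KDEE 12, 14 or 22, and 5 without KDSH 18 or WTEE 10), beside 11.6% of all genes, and 1.84% of all genes had groups that did not overlap. All 10 log2 fold changes were positive there, with a median of 0.17 beside 0.0016 over all genes. Between KDSH and WTSH none of the 10 had an unadjusted p under 0.05, where 1% of all genes did and 0.644% did not overlap; the median was -0.039. Between WTEE and KDEE, Aqp4 and Slc1a3 had an unadjusted p under 0.05, both lower in WTEE (4 genes without KDEE 22), beside 4.99% of all genes with 0.624% that did not overlap; the median was -0.061.

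The average housing difference over the genotypes also had 5 members under an unadjusted p of 0.05, namely Gfap, Vim, Serpina3n, Lcn2 and S100b, all higher under enrichment (3 genes without KDSH 8, KDSH 24 or WTSH 2), but 18.9% of all genes did so in this comparison. Lcn2 had 1.57 ± 0.53, S100b 0.21 ± 0.088, Serpina3n 0.27 ± 0.12 and Aldh1l1 0.12 ± 0.068 (edgeR, adjusted p = 0.208, 0.240, 0.246 and 0.315). For Aqp4 the average was -0.044 ± 0.060 and for Slc1a2 -0.078 ± 0.069, as their WT and MSK1 KD values had opposite signs. The share of all genes called in the housing average was 0.00495%, which is the immunoglobulin heavy chain gene Ighm alone, and 0% in the other 5 comparisons by edgeR. DESeq2 called 2, 14, 0, 118, 41 and 20 genes in the same 6 comparisons, none of them among the 10. The difference between the enrichment effects of the genotypes had an unadjusted p under 0.05 for Lcn2, larger in WT, and Aqp4, lower in WT, beside 3.26% of all genes. For Gfap and Vim that difference was -0.028 (95% interval -0.34 to 0.28) and 0.045 (95% interval -0.39 to 0.48).

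Further astrocyte genes, from lists of markers and functions, showed mostly positive differences in MSK1 KD mice, with no gene called in any of the 6 comparisons. Of the 10 markers, 7 had an unadjusted p under 0.05 between KDEE and KDSH, all higher in KDEE (Aldoc, Glul, Sox9, Fgfr3, Ntsr2, Mlc1 and Acsbg1), with a list median of 0.18, where 11.6% of all genes were under that p. Between WTEE and WTSH none did, where 6.55% of all genes did, and the list median was 0.067. Higher markers in KDEE than in KDSH at that p were not limited to astrocytes. They included 5 of 6 oligodendrocyte (list median 0.28), 7 of 7 choroid plexus (4.67) and 2 of 4 ependymal markers (0.46). Of 6 microglial markers 1 was higher, and of 6 neuronal and 5 endothelial markers 0 were. Gja1, which encodes the gap junction protein connexin 43, was at 207 ± 24.7 CPM in WTSH, 189.8 ± 10.1 in WTEE, 199 ± 12.5 in KDSH and 215 ± 11.1 CPM in KDEE, an order like that of Aqp4, and differed by -0.18 ± 0.061 between WTEE and KDEE (edgeR, adjusted p = 0.479). Of 34 genes of astrocyte function, 11 had an unadjusted p under 0.05 between KDEE and KDSH, all higher in KDEE, beside the 11.6% of all genes, and 1 did between WTEE and WTSH (Dio2, -0.46 ± 0.18), beside the 6.55% of all genes. Slc6a11, a transporter of astrocytes, had the lowest unadjusted p of that list between WTEE and KDEE, with -0.23 ± 0.063 (edgeR, adjusted p = 0.224). Sparc, a secreted matrix protein, had the lowest between KDEE and KDSH, with 0.27 ± 0.077 (edgeR, adjusted p = 0.338).

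The lists of reactive astrocyte genes had positive medians under enrichment. The 8 genes of general reactivity had a median log2 fold change of 0.27 in WT and of 0.21 in MSK1 KD mice, with no member at an unadjusted p under 0.05, and in the housing average Cxcl10 (0.77 ± 0.295) and Cp, which encodes ceruloplasmin, were under it, beside the 18.9% of all genes. The 12 genes of the list linked to inflammation (A1) had medians of 0.17 and 0.32 in the same comparisons. Srgn, a proteoglycan gene also expressed by blood and endothelial cells, had the lowest unadjusted p of that list between KDEE and KDSH, with 0.50 ± 0.22 (edgeR, adjusted p = 0.4025). The 11 tested genes of the list linked to ischaemia (A2) had 0.22 and 0.16. WTEE 10 had the highest summed level of the 21 libraries in each of these lists, at 70.1, 292.6 and 89.7 CPM in the order given. Other cell types had medians of similar size in the same comparisons, 0.21 and 0.28 for oligodendrocyte and 0.22 and 0.11 for endothelial markers. In the A2 list Cd14, a coreceptor for lipopolysaccharide that microglia also express, was higher in enriched mice of both genotypes, at 2.91 ± 0.24 CPM in WTSH, 4.02 ± 0.89 in WTEE, 2.57 ± 0.42 in KDSH and 3.72 ± 0.26 CPM in KDEE, and its housing average of 0.495 ± 0.096 had an adjusted p of 0.144 (edgeR). Of 23 genes listed for the signals and filaments of reactivity (JAK-STAT and NF-κB members, cytokines and their receptors, with Nes, Synm and Fabp7) 21 were tested, all but Cntf and Il6, and in the housing average 4 were higher (Socs3, Il1b, C1qa and Rela) and 2 lower (Jak1 and Lifr) at an unadjusted p under 0.05, beside the 18.9% of all genes. The medians of this list were 0.019 for enrichment in WT and 0.077 in MSK1 KD mice. Socs3, a target and inhibitor of STAT3 signalling, differed by 0.48 ± 0.17 between WTEE and WTSH (edgeR, adjusted p = 0.651), while Stat3 itself was at 62.3 ± 3.6 CPM in WTSH and 63.2 ± 2.6 CPM in WTEE. The complement gene C3, often used to mark the A1 state, was at 12.25 ± 8.52 CPM in WTSH, 12.97 ± 1.77 in WTEE, 13.8 ± 6.2 in KDSH and 18.1 ± 6.0 CPM in KDEE.

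No marker of another cell type was called in the housing average, where 18.9% of all genes had an unadjusted p under 0.05, and the part of other cell types in the astrocyte values was not tested beyond the covariates named. Of 6 oligodendrocyte markers, 5 had an unadjusted p under 0.05 in the housing average, all higher under enrichment (Mbp, Mog, Mag, Cnp and Mobp; list median 0.25), and their sum ran from 5688 to 8408 CPM in WTSH, 6306 to 7654 in WTEE, 5382 to 7740 in KDSH and 6459 to 8172 CPM in KDEE. All 3 red blood cell markers (list median 1.43) and all 3 neutrophil markers (list median 1.39) did so too, all higher, as did 4 of 4 ependymal and 6 of 7 choroid plexus markers. Of 6 microglial markers 1 did (list median 0.086) and of 5 endothelial markers 2 did (list median 0.20). None of 6 neuronal (list median -0.055), 5 meningeal or 3 GABA interneuron markers did, and of 3 oligodendrocyte precursor markers Gpr17 was lower. All of these lists are short, and their counts are too small to set against the share over all genes. The 3 pituitary markers had list medians of opposite sign, 4.45 for enrichment in WT and -6.31 in MSK1 KD mice, and their sum was 241 CPM in KDSH 8, 13.5 to 26.6 CPM in WTEE 11, 13 and 21, 8.16 CPM in KDSH 1 and at most 2.99 CPM in the other 16 libraries. The summed microglial markers ran from 292.8 to 367 CPM in WTSH, 309.6 to 359.8 in WTEE, 276 to 358 in KDSH and 314 to 389.6 CPM in KDEE.

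Some of the 10 genes varied together between mice of the same group. After subtraction of each group's mean log2 CPM, Pearson's r was positive in 34 of 45 pairs over the 21 libraries, and 15 pairs had an adjusted p under 0.05 (permutation test within groups, two-sided, 100000 permutations, Benjamini-Hochberg over 45 pairs), all positive. No share over all pairs of genes was computed. The strongest was Gfap with Serpina3n, r = 0.865 and Spearman's rho = 0.816 (permutation p = 2e-05 and 5e-05, adjusted p = 0.0009 and 0.00157). Without the 2 libraries farthest from the median of Gfap, r was 0.808. In every pair the first gene named sets which 2 libraries are left out, so an extreme library of the second gene can remain. Gfap with Vim gave r = 0.690, rho = 0.662 and r = 0.646 without the farthest 2 (permutation p = 0.00258 and 0.00362, adjusted p = 0.0145 and 0.0233). Vim, S100b and Aldh1l1 also varied together, as Vim gave r = 0.769 with Aldh1l1 and 0.752 with S100b, and S100b gave 0.777 with Aldh1l1 (permutation test, adjusted p = 0.00247, 0.0051 and 0.0145). Spearman's rho for these pairs was 0.782, 0.642 and 0.587. Without the farthest 2 libraries r was 0.634, 0.644 and 0.522. WTEE 10 had the highest level of each of these genes among the 21 libraries.

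Among the channel and transporter genes 2 pairs passed this threshold. Slc1a2 with Slc1a3 gave r = 0.689, rho = 0.629 and r = 0.597 without the farthest 2 (permutation p = 0.00105 and 0.00476, adjusted p = 0.0118 and 0.0245). Aqp4 gave r = 0.550 with Slc1a3 and 0.563 with Slc1a2 (permutation test, adjusted p = 0.0467 and 0.0706), and Slc1a3 gave a like value with Gfap, r = 0.548 (permutation test, adjusted p = 0.0585). Slc1a2 gave r = 0.171 with Gfap and -0.122 with Vim, and Aqp4 gave 0.038 with Vim and -0.251 with S100b, none with an adjusted p under 0.05, and differences between correlations were not tested. Lcn2 gave r between 0.567 and 0.639 with Gfap, Vim, S100b and Aldh1l1, all with an adjusted p under 0.05 by Pearson's r, but by Spearman's rho Vim alone did. Cd44 had no pair with an adjusted p under 0.05. Leaving out each library in turn gave 9 to 17 pairs, the lowest without KDSH 24, which had the least Gfap, Vim, Serpina3n and Lcn2 of the 21 libraries. In every such fit 7 pairs had an adjusted p under 0.05, namely Gfap with Serpina3n and S100b, Vim with S100b and Aldh1l1, S100b with Serpina3n and Aldh1l1, and Slc1a2 with Slc1a3.

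**Figure D3:**
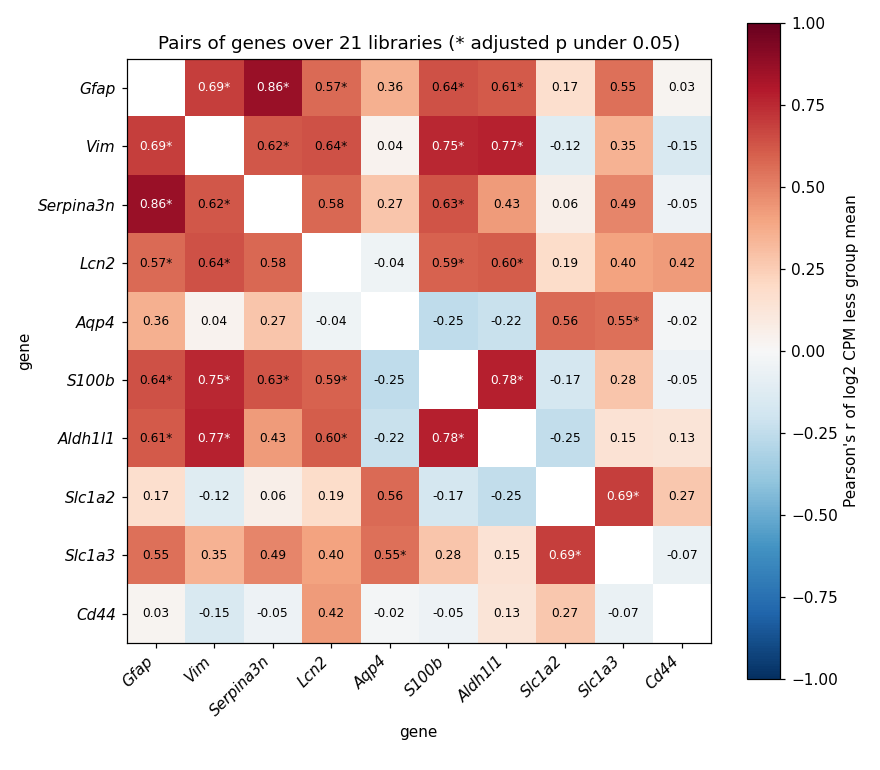
Pearson's r between the log2 CPM of each pair of the 10 genes over 21 libraries after removal of group means (colour from -1 to 1; asterisks mark an adjusted p under 0.05). Gfap, Vim, Serpina3n, Lcn2, S100b and Aldh1l1 share most of the 15 marked pairs, Slc1a2, Slc1a3 and Aqp4 the remaining ones, and Cd44 has none.

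**Figure D4:**
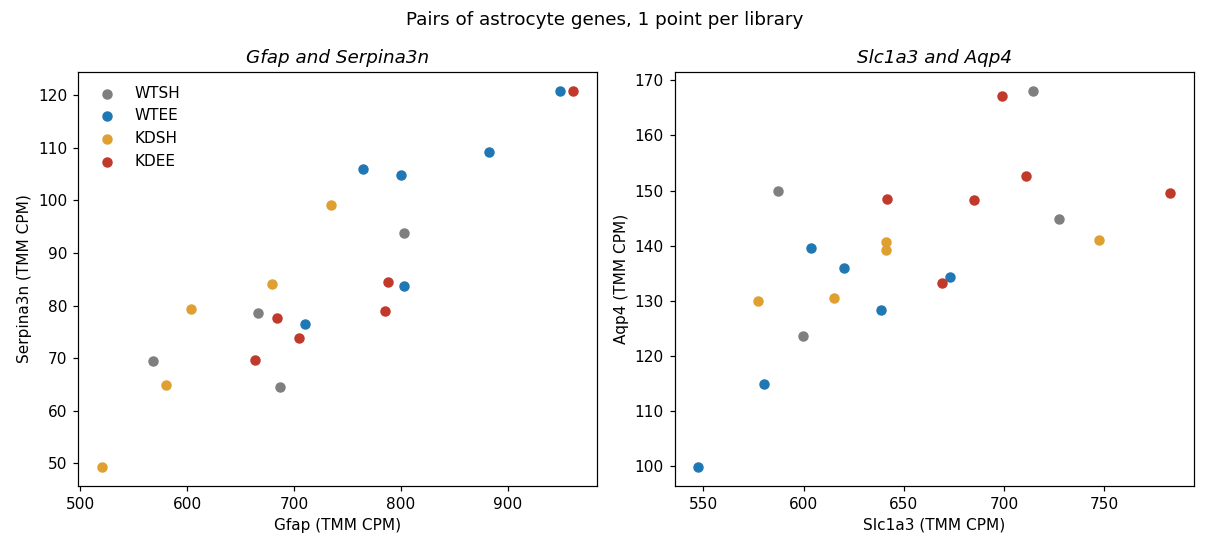
Levels (TMM CPM) of Serpina3n against Gfap and of Aqp4 against Slc1a3, 1 point per library, coloured by group. KDSH 24 lies at the lower left of the left panel (Gfap 519.9, Serpina3n 49.3 CPM) and WTEE 17 and KDEE 22 at its upper right (Serpina3n 120.7 and 120.8 CPM), and WTEE 10 lies at the lower left of the right panel.

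The tested genes most like each member, by r of log2 CPM less the group mean over the 21 libraries, were looked up among all 20187. They were picked as the highest of many values, so they carry no test. For Gfap they were Mobp (r = 0.868), a myelin gene, then Serpina3n and Lyz2 (0.825), the lysozyme of macrophages. For Serpina3n they were Hvcn1 (0.913), Klk6 (0.896), a protease of oligodendrocytes, and Itgax (0.892), which encodes the integrin CD11c. For Vim they were Ctsz (0.913), Ctsh (0.901) and Cnn3 (0.898), of which the first pair are lysosomal proteases. For Lcn2 they were Gbp5 (0.867), Ccl5 (0.850) and Ifi47 (0.841), all genes of the interferon or inflammatory response. For S100b they were Pla2g7 (0.963), Gpr37l1 (0.960), a receptor of astrocytes, and Serpine2 (0.938). Slc1a2 was nearest to Ahcyl1 (0.858), Igsf11 (0.856) and Mtmr2 (0.839), and Slc1a3 to Nckap1l (0.858), Gpm6b (0.852) and Jam2 (0.848). Aqp4 was nearest to Fam210a (0.872), Heatr5a (0.861) and Aldh1l2 (0.851). Aldh1l1 was nearest to Hist1h1c (0.938), Cd151 (0.919) and 2210016F16Rik (0.901), and Cd44 to Rora (0.862), Gm16675 (0.854) and Dlg1 (0.827).

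The set-aside libraries are given on a scale computed with all 24. Structural RNA took 22.8% of the counts in WTSH 4, 22.6% in WTSH 7 and 5.50% in KDSH 6, against 0.033% to 2.49% in the kept libraries. Gfap was at 574 and 603 CPM in WTSH 4 and 7 and 692 CPM in KDSH 6, inside the range of their kept group mates (550.5 to 783 CPM in WTSH and 504.8 to 717.5 CPM in KDSH). Serpina3n was at 77.7, 69.1 and 68.1 CPM and Aqp4 at 128, 139.6 and 129 CPM in the same order, also inside those ranges. Vim was at 58.8 and 54.0 CPM in WTSH 4 and 7, inside their group's range, and at 78.4 CPM in KDSH 6, above its group's 44.75 to 72.6 CPM. Aldh1l1 was at 38.7 CPM in WTSH 4 and 45.4 CPM in WTSH 7, below all 21 kept libraries (47.5 to 72.4 CPM). Slc1a2 was at 2860 and 3207 CPM in WTSH 4 and 7, the latter above all 21. Lcn2 was at 0.489 CPM on 6 counts in WTSH 4, 1.48 CPM on 26 counts in WTSH 7 and 2.04 CPM on 78 counts in KDSH 6. The WTSH 7 value lay above every kept WTSH library (0.362 to 0.9915 CPM on this scale). Those of WTSH 4 and KDSH 6 lay inside the ranges of their groups. WTSH 7 also had 7.289 CPM summed over the neutrophil markers. With all 24 libraries in the fit, WTEE minus WTSH was 0.32 ± 0.10 for Gfap and 0.47 ± 0.14 for Vim (edgeR, adjusted p = 0.245 for both), and KDEE minus KDSH was 0.265 ± 0.10 for Gfap and 0.31 ± 0.14 for Vim (edgeR, adjusted p = 0.419 and 0.466). Rps6ka5, the MSK1 gene, was at 23.3 ± 2.1 CPM in WTSH, 21.7 ± 4.0 in WTEE, 24.1 ± 0.46 in KDSH and 23.7 ± 0.57 CPM in KDEE. The mutation changes a codon and not the amount of transcript, so this level does not check the genotype labels.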

How the data were processed

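Hippocampal poly(A) RNA of 24 mice was sequenced as paired reads. The authors checked reads with FastQC 0.11.3, aligned them to GRCm38 with STAR 2.5 and deposited raw counts per gene symbol from HTSeq 0.6.1p1, unique and without strand. For the work here the HTSeq summary lines were dropped, which left 49568 symbols, and no 2 libraries were identical. Groups came from the sample labels. Members and gene lists were chosen with earlier results of these data known. Named genes are the members, each list's defining genes and those with its lowest p, and the 3 genes most like each member. The 21 libraries the authors kept were fitted in 1 model of 4 groups with edgeR 4.0.16 (TMM, filterByExpr, quasi-likelihood test, R 4.3.3), with Benjamini-Hochberg adjustment over 20187 genes. The fit was tested on simulated data. SEs are the log2 fold change over the root of F. All 95% intervals are a normal approximation from these SEs, narrower than the quasi-likelihood test implies. Exon lengths came from a GRCm38 annotation and matched 95.1% of symbols, and start regions from RefSeq. Pairs were tested by permutation within groups. Alternatives were DESeq2 1.42.0, other scaling, filters, libraries, covariates and each library left out. Lcn2 had the lowest counts, 8 to 452 a library. 1 listed gene's result is not reported here.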

Additional observations from a re-analysis of the deposited data

Results flagged for a closer look

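In 7 of 40 combinations of gene and group, 1 library lay far from the others of its group by Dixon's test at the 95% level, where chance gives about 1 in 20. WTEE 10 had 119.6 CPM of Vim against 79.7 to 87.4 CPM in the other WTEE libraries, and 206 CPM of S100b against 122.5 to 144 CPM. This library also had the fewest neuronal and the second most choroid plexus transcripts of its group. KDEE 22, the shallowest of the kept libraries, had 120.8 CPM of Serpina3n against 69.7 to 84.4 CPM, and 6.956 CPM of Lcn2 against 0.704 to 1.93 CPM. WTSH 19 had 1.016 CPM of Lcn2 against 0.372 to 0.464 CPM. KDSH 18 had 64.25 CPM of Aldh1l1 against 51.4 to 54.9 CPM. WTSH 5 had 3257 CPM of Slc1a2 against 2495 to 2582 CPM. Among the set-aside libraries, Slc1a2 in WTSH 7 was at 3207 CPM on the scale of all 24 libraries, above the 1884 to 3171 CPM of the kept ones.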

How the results depend on the processing

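None of the 10 genes was called in any comparison under any alternative fit, and the number of calls over all genes was small and unstable. DESeq2 called 2 genes between WTEE and WTSH, 14 between KDEE and KDSH, 118 between WTEE and KDEE, 41 in the housing average and 20 in the interaction. With all 24 libraries edgeR called 1 gene between WTEE and WTSH and 15 in the housing average, with only the compared groups 1 between KDEE and KDSH, and with structural RNA as a covariate 17 in the interaction. The number of the 10 genes with an unadjusted p under 0.05 was 5 for KDEE minus KDSH and 1 for KDSH minus WTSH with only the compared groups, 1 in each of these with the choroid plexus covariate, and 1 in the interaction with at least 10 counts in every library, a filter that drops Lcn2.

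Leaving out 1 library in turn gave 2 to 5 such genes for WTEE minus WTSH (2 without WTSH 2, 5 or 23 or WTEE 10, and 3 without WTEE 17), 1 to 5 for KDEE minus KDSH (1 without KDSH 24 or KDEE 12, 14 or 22, and 5 without KDSH 18 or WTEE 10), 0 to 1 for KDSH minus WTSH (1 without KDSH 24), 2 to 4 for WTEE minus KDEE (4 without KDEE 22), 3 to 6 for the housing average (3 without KDSH 8, KDSH 24 or WTSH 2) and 1 to 2 for the interaction (1 without KDSH 8, KDEE 14, KDEE 15, WTSH 5 or WTEE 10). Calls over all genes ran from 0 to 1 for WTEE minus WTSH (1 without WTEE 13) and 0 to 6 for the housing average (0 without WTSH 5 or 19, 2 without KDSH 18 or KDEE 20, 6 without WTEE 21). Pairs of genes ran from 9 to 17, a check chosen after seeing the data, and numbered 17 without removal of group means, 15 with all 24 libraries and 16 with RLE scaling.

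Of 1152 log2 fold changes recomputed for 39 named values, 5 reversed, all with a library left out. They were Aldh1l1 for WTEE minus WTSH (-0.014 without WTEE 10, highest 0.148), Cd44 for WTEE minus WTSH (0.048 without WTSH 23, lowest -0.19), Lcn2 for KDEE minus KDSH (-0.34 without KDEE 22, highest 0.854), and Slc1a2 and Cd44 for KDEE minus KDSH (-0.0044 and -0.0014 without KDSH 1, highest 0.082 and 0.16). The cause was not tested. No paired analysis was possible because sample numbers are unique across the 4 groups.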
